A study of Mus musculus with 12 samples.

Results

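RNA-seq libraries of mouse small intestinal intraepithelial lymphocytes (IEL) labelled CD8aa were compared with those of the IEL sorted alongside them from the same kind of host, and the genes that separated every library of one phenotype from every library of the other were described. All 12 libraries of the series entered, 6 labelled CD8aa and 6 others, here called companion IEL, with the transferred cell type as a covariate. The 4 groups of 3 libraries were CD8aa from CD4 (TCRβ CD8αα+ cells of hosts given CD4+ T cells), CD8aa from CD8ab (TCRβ CD8αα+ cells of hosts given CD8αβ+ T cells), CD4 IEL (TCRβ CD4+ cells of the first kind of host) and CD8ab IEL (TCRβ CD8αβ+ cells of the second kind). Every host was a Rag2–/– mouse, which makes no T or B cells of its own but keeps innate lymphocytes and myeloid cells, and every donor of lymph node T cells was Themis WT. Cells were collected 1 week after intravenous transfer. The labels give no age or sex of the animals and do not state whether replicates are separate mice, so the p-values cover the spread between these libraries, which may be technical.

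IEL lie between the epithelial cells of the gut. Those that carry CD8 as an αα homodimer include T cells that keep granules and activating receptors ready, and also cells with natural killer (NK) features that signal through chains with an immunoreceptor tyrosine-based activation motif (ITAM), such as those encoded by Fcer1g and Tyrobp. CD8αβ and CD4 IEL are the conventional T cells of the epithelium, which depend on CD28-type costimulation and on inhibitors such as CD5 and CD6 that tune the T cell receptor signal.

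Library totals ran from 5618917 to 11068713 counts. Levels are given as CPM (counts scaled to a common library total), and a gene with 0 counts may still have up to 3, which is 0.271 to 0.534 CPM depending on the library and covers counting error only. Of 25899 gene symbols, 12622 had enough reads to be tested. Sex-linked transcripts divided the CD8aa libraries. Replicates 1 and 2 of CD8aa from CD4 and replicates 1 and 3 of CD8aa from CD8ab had Xist, the X-inactivation transcript, at 348 to 672 CPM over library totals and Y-linked transcripts at 0.356 to 1.01 CPM. The remaining 2 CD8aa libraries and all 6 companion libraries had Y-linked transcripts at 234 to 479 CPM and Xist at 0 to 39.4 CPM. Those 4 CD8aa libraries thus stand apart, no companion library shares their class, and the counts of called genes, programme lists and symbol families are given with and without them. Without them 2 CD8aa libraries are left, 1 of each origin. Of the 12622 genes, 1267 are then called higher and 1231 lower, fewer than with all 12 libraries. Counts without the 4 libraries are therefore to be set beside these counts and not against shares from all 12 libraries. What the classes say about the origin of the cells was not tested.

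Coreceptor transcripts followed the labels, which only checks the sort. Cd8a, the α chain of both CD8 forms, had a lowest value of 2433, a median of 2787 and a highest of 3251 CPM in CD8aa libraries, against 45.7, 1067 and 2224 CPM in companion libraries. Cd4 was at 2.56 to 9.35 CPM in CD8aa libraries, against 11.6 to 1749 CPM in companion libraries, and Cd8b1, the β chain of CD8αβ, was at 2.53 to 20.6 CPM in CD8aa libraries against 3.74 to 1167 CPM in companion libraries. Cells were sorted on these proteins, and both companion groups differ in them by design, so their pooled fold changes carry no information. The T cell label was checked against 26 genes of the T cell surface and receptor complex. CD8aa libraries were lower for 19 and higher for 3 of them (Cd3g, Cd7 and Cd96), and the median log2 fold change of the list was -4.02 against a median of 0.0 over all genes tested, of which 19.6% were called higher and 17.9% lower by the test described further on. Cd3e, a signalling chain of the T cell receptor complex, was at 3.21, 13.5 and 22.2 CPM (lowest, median, highest) in CD8aa libraries and at 403, 517 and 639 CPM in companion libraries. Its partner Cd3g went the other way, at 1902 to 3780 CPM in CD8aa libraries against 424 to 1002 CPM in companion libraries. The other 4 members, Cd27, Zap70, Ptpn22 and Cd48, did not pass the test, with log2 fold changes of -0.27 to 0.21. Most of these T cell transcripts were thus lower in the libraries labelled CD8aa, although the label names TCRβ. Constant regions of the T cell receptor genes are not analysed here.

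Separation was common. A gene was said to separate the phenotypes when its lowest TMM-scaled CPM in one was above its highest in the other, which is a description and not a test. CD8aa libraries lay entirely above companion libraries for 1310 genes (10.4% of those tested) and entirely below for 1052 (8.33%). In the edgeR quasi-likelihood test with Benjamini-Hochberg adjustment over all 12622 genes, 2475 genes (19.6%) were higher and 2264 (17.9%) lower in CD8aa libraries at an adjusted p under 0.05. Both conditions held for 2343 genes, 1300 higher (10.3%) and 1043 lower (8.26%), which is 49.4% of the called genes, while 19 genes separated without a call. These 2343 are called the separating genes here. In bulk RNA, fewer cells of a type and less RNA per cell cannot be told apart for any of them. Without the 4 CD8aa libraries that had Xist and no Y-linked transcripts, 2504 genes were called in all under that fit's own filter. Of the 2343, 1810 were then still called in the same direction (972 higher and 838 lower) and none in the other. A covariate for Y-linked transcripts left 2022 of the 2343 called. A gene that separates all 12 libraries keeps its direction in any part of them, so the lack of opposite calls was nearly fixed beforehand. The change differed between hosts given CD8ab cells and hosts given CD4 cells for 323 genes (2.56% of those tested, edgeR interaction test; 147 to 368 on leaving out 1 library), and these included 79 of the 1300 higher genes (6.08%) and 44 of the 1043 lower ones (4.22%).

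Most gaps were narrow. The gap of a gene is the log2 ratio of the lowest CPM of the higher phenotype to the highest CPM of the lower one, each plus 0.5. Its median was 0.498 for genes higher in CD8aa libraries and 0.44 for genes lower. A gap of at least 1 was found for 384 higher and 265 lower genes, a gap of at least 3 for 71 higher and 57 lower genes, and a gap of at least 5 for 4 higher and 8 lower genes. At the edge lay genes such as Ppp2r5d, a phosphatase subunit with 45.5 to 81.1 CPM in CD8aa libraries and 81.2 to 138 CPM in companion libraries. Just outside lay Pear1, a receptor best known from platelets, whose lowest CD8aa library and highest companion library were both at 83.1 CPM.

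**Figure D1:**
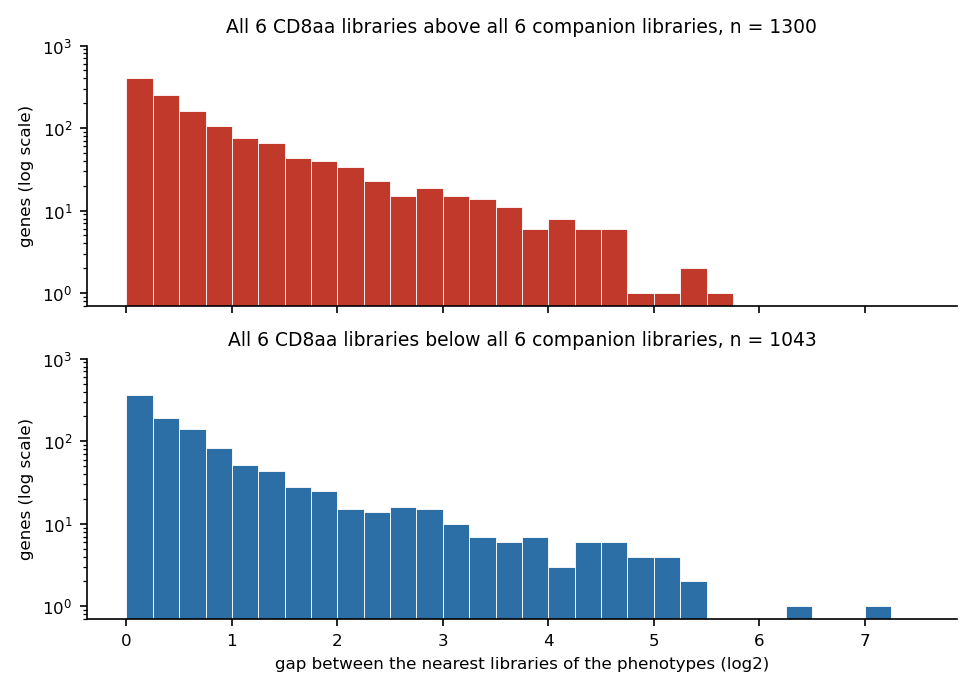
Number of separating genes (log scale) by the gap between the nearest libraries of the phenotypes, in log2 units. The upper panel holds the 1300 genes with all 6 CD8aa libraries above all 6 companion libraries and the lower panel the 1043 genes with all 6 below. Both fall off steeply, and the widest gap on the lower side (Ubash3a, 7.19) is wider than the widest on the upper side (Wdr86, 5.68).

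The 12 widest gaps in each direction were taken among genes above the median level, leaving out sex-linked, clone-name and T cell receptor segment genes. Those above companion IEL belonged mostly to genes not known for roles in lymphocytes. Their promoters, from RefSeq on GRCm38.p6 (250 bases before and 50 after the start), are shown for the first 3 with an entry, with matches to 4 motifs in capitals. These were RUNX (TGTGGT), TCF/LEF (CTTTGA), T-box (GGTGTGA) and a palindromic E-box (CAGCTG), searched on both strands. Of the 9750 tested genes with a promoter entry (77.2%), 13.1% held the RUNX letters, 12.1% the TCF/LEF, 3.52% the T-box and 14.5% the E-box letters. Entries covered fewer than 80% of the genes, so a comparison of promoter content between sets is void. The windows are chr5:24730631-24730930 (minus strand) for Wdr86, chr5:35679731-35680030 (minus strand) for Htra3 and chr7:130935953-130936252 (plus strand) for Htra1.
Wdr86: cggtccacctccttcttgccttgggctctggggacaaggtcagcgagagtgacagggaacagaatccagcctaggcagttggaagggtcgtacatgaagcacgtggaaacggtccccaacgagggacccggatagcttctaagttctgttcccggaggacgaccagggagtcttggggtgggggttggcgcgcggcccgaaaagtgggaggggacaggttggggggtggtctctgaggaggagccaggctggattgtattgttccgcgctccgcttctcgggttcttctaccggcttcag
Htra3: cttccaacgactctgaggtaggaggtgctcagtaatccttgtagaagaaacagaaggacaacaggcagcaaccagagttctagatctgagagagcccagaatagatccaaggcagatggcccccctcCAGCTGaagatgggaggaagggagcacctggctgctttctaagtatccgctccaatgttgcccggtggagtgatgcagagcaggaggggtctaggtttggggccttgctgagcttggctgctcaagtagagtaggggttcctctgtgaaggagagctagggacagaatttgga
Htra1: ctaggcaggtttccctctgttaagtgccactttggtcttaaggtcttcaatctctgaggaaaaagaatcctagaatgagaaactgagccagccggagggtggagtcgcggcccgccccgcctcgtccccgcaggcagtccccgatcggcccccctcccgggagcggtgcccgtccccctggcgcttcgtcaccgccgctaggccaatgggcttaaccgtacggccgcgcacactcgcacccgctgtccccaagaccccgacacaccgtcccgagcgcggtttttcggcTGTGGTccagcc
The Htra3 window held an E-box and that of Htra1 a RUNX match, while none of the 4 motifs was in the Wdr86 window. These are matches of letters and not shown sites.

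Wdr86 (ENSMUSG00000055235, chromosome 5, 24711738 to 24730727 of mm10, minus strand), which encodes a little studied WD-repeat protein, was at 25.1, 33.9 and 51 CPM (lowest, median, highest) in CD8aa libraries and had no read in any companion library. This is at least 581-fold higher, computed against 3 reads over the 6 companion libraries. Htra3 and Htra1 encode secreted serine proteases of the HtrA family. Htra3 (chromosome 5, 35652041 to 35679782) was at 240, 283 and 360 CPM in CD8aa libraries, against 1.11, 2.84 and 4.91 CPM in companion libraries (log2 fold change 6.64 ± 0.24 SE, edgeR adjusted p = 5.67e-10). Htra1 (chromosome 7, 130936111 to 130985660) was at 123, 247 and 347 CPM in CD8aa libraries and at 0.109, 0.554 and 2.64 CPM in companion libraries (log2 fold change 7.89 ± 0.37 SE, adjusted p = 3.63e-09). The family's mitochondrial member Htra2 separated by far less, at 127 to 171 CPM in CD8aa libraries against 94.8 to 125 CPM in companion libraries, and Htra4 was too low to test. The 4 HtrA genes were listed after Htra1 and Htra3 were seen, so it supports nothing by itself that 3 of them separated. Of all tested genes, 10.3% separated as higher. The secreted pair was near 0 in companion libraries while Htra2 was not.

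Ddc (chromosome 11, 11814101 to 11898144) encodes aromatic L-amino acid decarboxylase, which makes dopamine and serotonin from their precursors. It was at 312, 401 and 456 CPM in CD8aa libraries, against 4.3, 7.91 and 8.74 CPM in companion libraries (log2 fold change 5.72 ± 0.18 SE, adjusted p = 1.31e-10). Of 12 genes of monoamine synthesis, transport and breakdown, listed after the value of Ddc was seen, Ddc alone was higher and separated. The other genes of synthesis were absent or near 0: Th, Tph2 and Dbh had no read in any library, and Tph1 was at 0 to 0.28 CPM in CD8aa libraries and at 0 to 2.91 CPM in companion libraries, a lower call at levels near the floor (log2 fold change -3.98).

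Genes of Ras, phosphatase and growth factor signalling that are best known from brain or from insulin action followed. Rasgrf1, a Ras exchange factor of neurons, was at 112, 129 and 138 CPM in CD8aa libraries, against 0.165, 1.52 and 3.65 CPM in companion libraries (log2 fold change 6.27 ± 0.33 SE, adjusted p = 7.9e-09). Its paralogue Rasgrf2, chosen after its values were seen, was at 42.1 to 86.7 CPM in CD8aa libraries against 0.555 to 9.58 CPM in companion libraries. Rasgrp2, an exchange factor of lymphocytes and platelets, was lower, at 7.51 to 20.1 CPM in CD8aa libraries against 62.8 to 138 CPM in companion libraries. Its relatives Rasgrp1 and Rasgrp4 did not pass the test, with log2 fold changes of -0.20 and -0.26. Ptpn5, the striatum-enriched tyrosine phosphatase, was at 256, 297 and 386 CPM in CD8aa libraries and at 0.391, 2.3 and 9.38 CPM in companion libraries. Grb10, an imprinted adaptor that dampens insulin receptor signalling, was at 33 to 75.2 CPM in CD8aa libraries and at 0 to 1.05 CPM in companion libraries. P2rx1, an ATP-gated channel of platelets and smooth muscle, was at 27.5 to 38.8 CPM in CD8aa libraries, with 6 reads in all across the companion libraries. Rasgrp1 and Rasgrp4 overlapped between the phenotypes, and the other genes named here separated.

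Surface proteins and a glycosyltransferase made up the rest of the widest gaps. Nrcam, an adhesion molecule of neurons and glia, was at 11.1, 33.9 and 56 CPM in CD8aa libraries and had no read in companion libraries (at least 553-fold higher). Igsf5, a junctional adhesion protein of epithelia, was at 50.4 to 85.7 CPM in CD8aa libraries and 0 to 1.48 CPM in companion libraries. Klrb1a, an NK lectin-like receptor, was at 119 to 285 CPM in CD8aa libraries and 0.693 to 5.24 CPM in companion libraries. B3gnt7, a glycosyltransferase that extends keratan sulphate chains, was at 51.8 to 81.3 CPM in CD8aa libraries and 0.599 to 2.09 CPM in companion libraries. All 12 genes were also called within the hosts given CD4 cells alone and within those given CD8ab cells alone. They were chosen by their gap over all 12 libraries, so this could hardly fail and is no separate support. The change of Grb10 differed between the kinds of host. Its log2 fold changes were 9.47 in hosts given CD8ab cells and 5.89 in hosts given CD4 cells (edgeR interaction adjusted p = 0.0286).

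**Figure D2:**
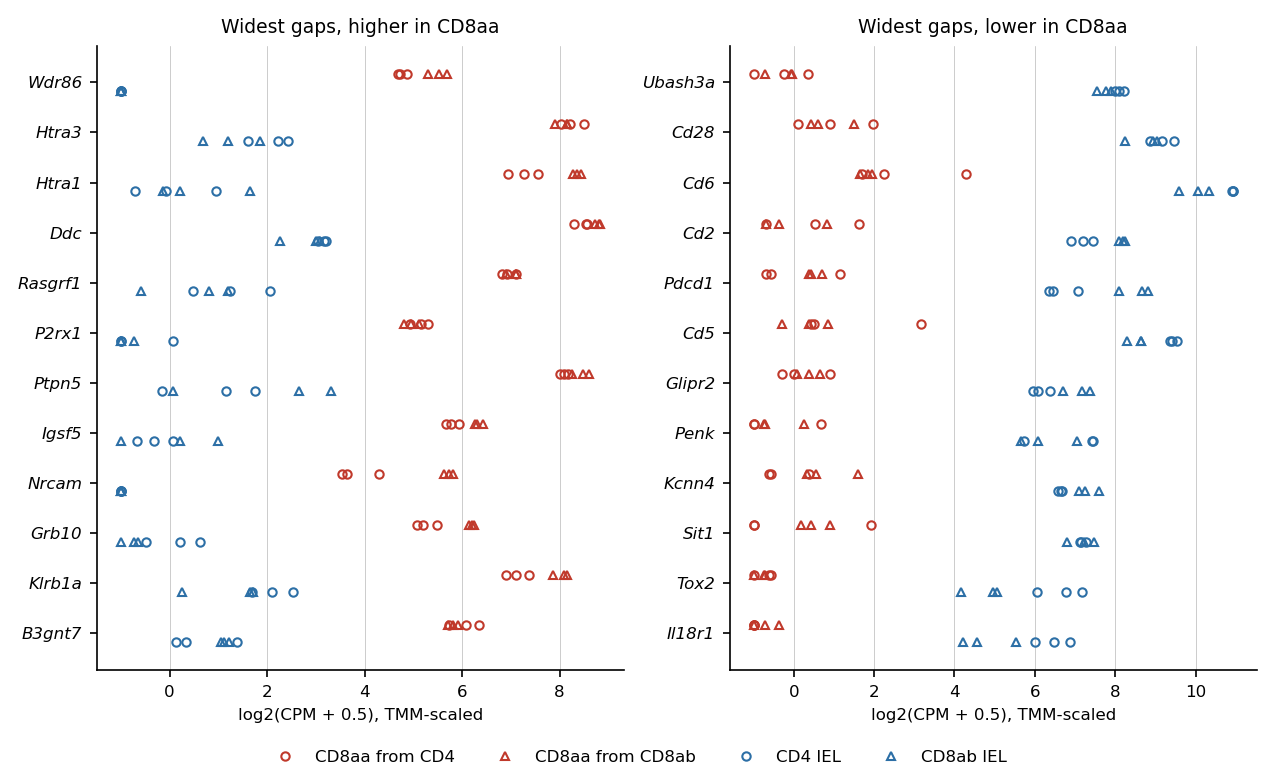
Level of the 12 genes with the widest gap in each direction, as log2(CPM + 0.5), 1 point per library. They were taken among genes above the median level, leaving out sex-linked, clone-name and T cell receptor segment genes. Red points are CD8aa libraries, drawn above the blue companion libraries of the same gene, with circles for hosts given CD4 cells and triangles for hosts given CD8ab cells. Wdr86 and Nrcam sit at the floor in every companion library.

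On the lower side the widest gaps belonged to T cell genes, with a few others among them. Ubash3a, a T cell phosphatase that limits receptor signalling, was at 0, 0.401 and 0.78 CPM in CD8aa libraries, against 186, 246 and 298 CPM in companion libraries (log2 fold change -9.38 ± 0.30 SE, adjusted p = 1.31e-10). Cd28, Cd6, Cd2, Pdcd1, Cd5 and Sit1 had medians of 0.608 to 3.23 CPM in CD8aa libraries and 146 to 1606 CPM in companion libraries. Among the CD8aa libraries, replicate 3 of CD8aa from CD4 held the highest Cd6 (18.9 CPM) and Cd5 (8.43 CPM). Without it the log2 fold changes were -8.71 for Cd6 and -9.10 for Cd5, against -8.10 and -8.14 with it. The promoters of Ubash3a (chr17:31207816-31208115, plus strand) and Cd5 (chr19:10738925-10739224, minus strand) are shown as those of 2 of the widest gaps with an entry, and neither held any of the 4 motifs.
Ubash3a: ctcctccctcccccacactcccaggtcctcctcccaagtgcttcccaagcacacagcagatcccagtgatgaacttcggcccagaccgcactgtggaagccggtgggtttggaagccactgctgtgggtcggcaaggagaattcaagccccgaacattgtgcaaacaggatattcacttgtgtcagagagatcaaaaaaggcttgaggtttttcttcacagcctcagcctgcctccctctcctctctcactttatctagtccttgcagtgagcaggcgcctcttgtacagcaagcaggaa
Cd5: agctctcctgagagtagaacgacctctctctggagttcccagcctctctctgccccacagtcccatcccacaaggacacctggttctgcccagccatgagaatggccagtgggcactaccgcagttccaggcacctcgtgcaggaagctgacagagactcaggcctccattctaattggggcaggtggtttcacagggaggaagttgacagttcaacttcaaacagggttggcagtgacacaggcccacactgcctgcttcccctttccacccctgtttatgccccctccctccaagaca
The remaining widest gaps of this side were those of Penk, Glipr2, Kcnn4, Tox2 and Il18r1. Of these, Tox2 is also in the list of T cell identity factors and Il18r1 in that of cytokine receptors, both used further on. Penk, the precursor of the enkephalin opioid peptides, was at 0, 0.0999 and 1.09 CPM in CD8aa libraries and at 49.9, 99.3 and 175 CPM in companion libraries (log2 fold change -8.34 ± 0.59 SE, adjusted p = 8.99e-08, and -8.96 without replicate 3 of CD8aa from CD4). The other opioid precursor genes Pdyn and Pnoc had no read, and Pomc was too low to test. Glipr2, a protein of the Golgi membrane, was at 0.312 to 1.37 CPM in CD8aa libraries and 61.3 to 164 CPM in companion libraries. Kcnn4, the calcium-activated potassium channel that T cells use to sustain calcium entry, was at 0.156 to 2.53 CPM in CD8aa libraries and 95 to 194 CPM in companion libraries. Tox2, an HMG-box factor, had 4 reads in all 6 CD8aa libraries and was at 17.3 to 144 CPM in companion libraries. Il18r1, a chain of the interleukin 18 receptor, likewise had 4 reads in CD8aa libraries, against 18.1 to 116 CPM in companion libraries.

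Some separating genes had no read at all in one phenotype, 31 in companion libraries and 26 in CD8aa libraries. Among the 31, Hebp2, which encodes a haem-binding protein, was at 5.73 to 27.2 CPM in CD8aa libraries (at least 300-fold higher). Piwil4, a PIWI protein of the germ line, was at 4.1 to 14.8 CPM (at least 166-fold higher), and Mag, a myelin glycoprotein, at 2.76 to 8.14 CPM (at least 80.5-fold higher). Among the 26, Tnfsf11, the cytokine RANKL, was at 10.9 to 58.7 CPM in companion libraries (at least 551-fold lower in CD8aa libraries), and Ankrd6, an ankyrin-repeat protein of Wnt signalling, at 0.416 to 45.8 CPM (at least 371-fold lower). These 5 were chosen after their values were seen, as those with the most reads or the least expected tissue, and no such level is more than an absence of reads at these depths.

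Symbol families were then counted against all tested genes, of which 10.3% were separating and higher and 8.26% separating and lower. Among 43 orphan, adhesion and other receptors of the Gpr, Lgr, Fzd, Mrgpr and Adgr symbols, 14 separated as higher (32.6%) and 5 as lower (11.6%), with a median log2 fold change of 0.54. Mrgpra9, a Mas-related receptor whose relatives act in sensory neurons, was at 32.3, 37.4 and 63.2 CPM in CD8aa libraries and at 0, 0.152 and 1.44 CPM in companion libraries. Lphn2, an adhesion receptor of synapses, was at 20.1 to 39.1 CPM in CD8aa libraries, against 0 to 1.25 CPM in companion libraries. On the lower side Cd97, the leukocyte adhesion receptor, was at 2.29 to 11.1 CPM in CD8aa libraries and 272 to 420 CPM in companion libraries. It shares its place with Ddx39 on the opposite strand, which was also lower (log2 fold change -0.99).

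Families of adhesion and guidance, motor and channel genes held separating genes in both directions. Of 45 guidance and synapse genes, 11 separated as higher and 11 as lower (24.4% each). Nrp2, a semaphorin and VEGF co-receptor, was at 59.6 to 83.8 CPM in CD8aa libraries, against 0.15 to 7.9 CPM in companion libraries. Plxnc1, a semaphorin receptor, was at 0 to 0.512 CPM in CD8aa libraries and 3.89 to 9.72 CPM in companion libraries. Of 103 motor and cytoskeleton genes, 10 separated as higher (9.71%) and 22 as lower (21.4%). Tpm4, a tropomyosin, was at 6.54, 9.24 and 16.9 CPM in CD8aa libraries and at 158, 220 and 324 CPM in companion libraries, and the lower side also held mitotic kinesins such as Kif11 and Kif23. Myh7b, a slow-muscle myosin chain that overlaps Trpc4ap on the opposite strand, was at 49.9 to 84.6 CPM in CD8aa libraries and 0 to 4.19 CPM in companion libraries. Of 68 ion channel genes, 9 were called higher (13.2%) and 22 lower (32.4%), beside 19.6% and 17.9% of all tested genes. The ion channel genes had a median log2 fold change of -0.30, and 7 separated as higher (10.3%) and 9 as lower (13.2%). Kcnn4 above was the lower one with the widest gap, and Clic4, the higher one, was at 283 to 381 CPM in CD8aa libraries against 74.7 to 119 CPM in companion libraries. Without the 4 Xist libraries the calls were 5 higher and 18 lower for ion channels and 8 higher and 14 lower for guidance genes. They were 13 higher and 27 lower for motor genes and 16 higher and 6 lower for the receptors above. Of all 12622 tested genes, 1267 were then higher and 1231 lower.

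Detoxification genes were called higher more often than lower, and zinc finger genes were seldom called lower. Of 93 oxidation and conjugation enzymes, 30 were called higher (32.3%) and 9 lower (9.68%), beside 19.6% and 17.9% of all tested genes. Among these enzymes 16 separated as higher (17.2%) and 6 as lower (6.45%). Cyp2j9, a cytochrome P450 of the arachidonic acid epoxygenase group, was at 9.9, 13.3 and 16 CPM in CD8aa libraries with no read in companion libraries (at least 205-fold higher). Its neighbour in the family Cyp2j6 was also higher, at a median of 15.3 CPM in CD8aa libraries and 0.109 CPM in companion libraries, while 5 further Cyp2j genes had no read. Of 382 zinc finger genes, 76 were called higher (19.9%) and 23 lower (6.02%), and 40 (10.5%) and 10 (2.62%) separated. Both shares on the higher side were near those of all genes, and both on the lower side were smaller. With scaling by library totals alone these calls were 68 higher and 33 lower. In hosts given CD4 cells alone they were 35 higher and 28 lower, with a median log2 fold change of 0.04. Without the 4 Xist libraries the zinc finger calls were 26 higher and 10 lower, beside 1267 and 1231 of all 12622 tested genes. The oxidation and conjugation enzymes then had 18 higher and 4 lower, and the developmental genes described next 6 higher and 2 lower. Zfp105, a zinc finger gene of the testis, was at 6.32 to 18.6 CPM in CD8aa libraries with no read in companion libraries (at least 193-fold higher). Of 31 developmental ligand and homeobox genes, 7 separated as higher (22.6%) and 2 as lower (6.45%). Dll1, a Notch ligand, was at 41.7, 53.8 and 90.4 CPM in CD8aa libraries and at 0.15, 3.16 and 6.59 CPM in companion libraries, and Fgf13 was lower, at 1.4 to 5.52 CPM in CD8aa libraries against 26.4 to 50.2 CPM in companion libraries.

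Solute carriers, small GTPase regulators, lipid proteins and matrix genes were called at shares nearer to those of all tested genes (19.6% higher, 17.9% lower). Small GTPase regulators and lipid proteins nevertheless separated at larger shares than all tested genes (10.3% higher, 8.26% lower). Of 307 solute carriers and ABC or P-type pumps, 74 were called higher (24.1%) and 61 lower (19.9%), with 67 higher and 68 lower on scaling by library totals. Slc26a10 was at 43.5 to 130 CPM in CD8aa libraries and 3.05 to 8.24 CPM in companion libraries, and the organic anion transporter gene Slco3a1 at 0 to 1.54 CPM in CD8aa libraries against 30.3 to 73.3 CPM in companion libraries. Of 148 small GTPase regulators, 42 were called higher (28.4%) and 37 lower (25%), with 36 higher and 39 lower on scaling by totals. Among them 28 separated as higher (18.9%) and 20 as lower (13.5%). Rgs10, a regulator of G protein signalling, was at 0.624 to 5.17 CPM in CD8aa libraries and 18.9 to 49.1 CPM in companion libraries. Of 84 lipid-binding proteins and lipid enzymes, 23 were called higher (27.4%) and 19 lower (22.6%), and 14 separated as higher (16.7%) and 13 as lower (15.5%). Pltp, the phospholipid transfer protein of plasma, which overlaps Ctsa, was at 262 to 417 CPM in CD8aa libraries and 26.9 to 79.3 CPM in companion libraries, and Apoe at 0.78 to 4.25 CPM in CD8aa libraries against 15 to 39.1 CPM in companion libraries. Of 55 matrix and protease genes, 9 were called higher (16.4%) and 13 lower (23.6%), while 5 separated as higher and 3 as lower, among them the metalloprotease gene Adam19 at 16.5 to 86.6 CPM in CD8aa libraries and 203 to 654 CPM in companion libraries. Without the 4 Xist libraries the calls were 40 higher and 39 lower for solute carriers and 27 higher and 24 lower for GTPase regulators. They were 17 higher and 10 lower for lipid proteins, 5 higher and 10 lower for matrix genes, and 1267 higher and 1231 lower for all 12622 tested genes.

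**Figure D3:**
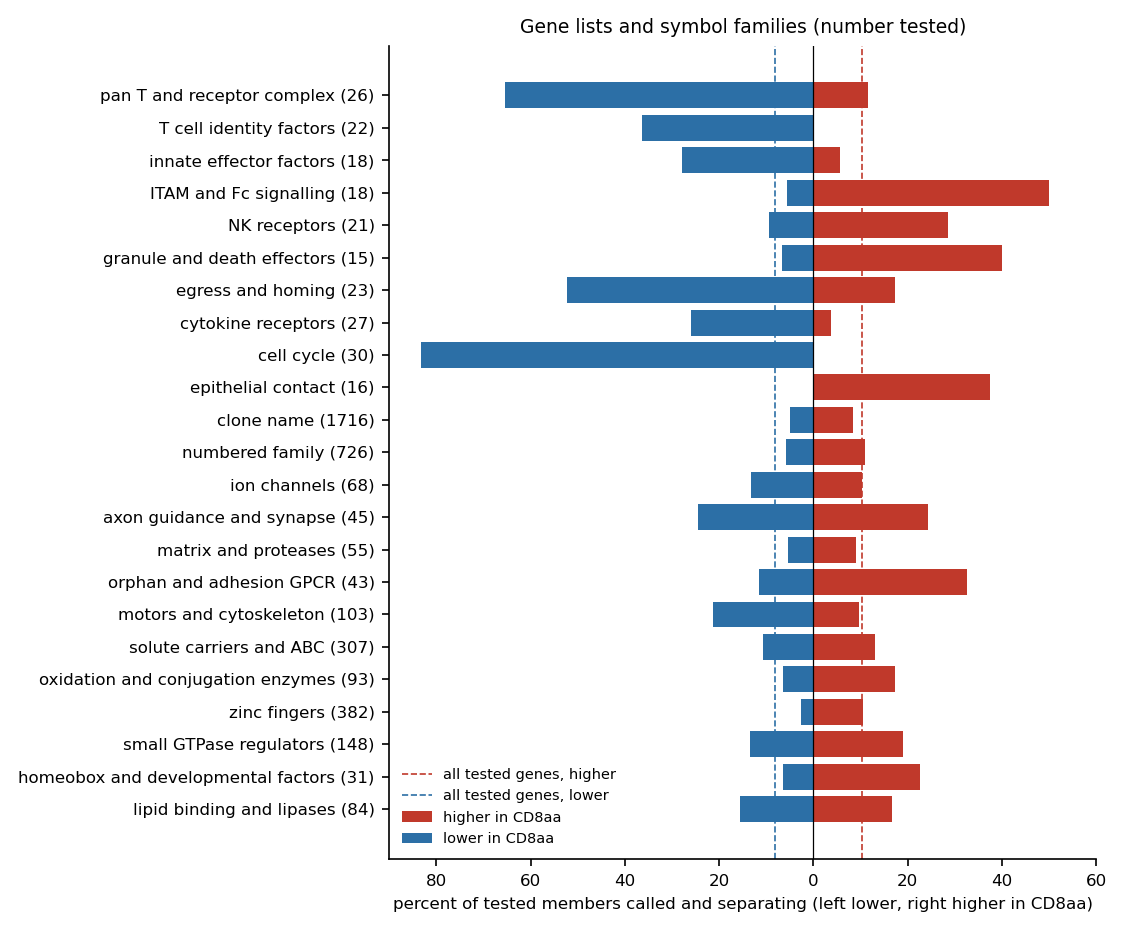
Percent of the tested members of each gene list or symbol family (number tested in brackets) that were called and separating, to the right for higher and to the left for lower in CD8aa libraries. Dashed lines mark the 10.3% and 8.26% of all tested genes. Cell cycle, T cell surface, and egress and homing genes reach furthest to the left, and ITAM and Fc receptor signalling genes furthest to the right.

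Lists of immune and cell cycle genes gave the setting of these genes, beside the 19.6% of all tested genes called higher and the 17.9% called lower. Of 30 cell cycle genes, 28 were lower and none higher in CD8aa libraries, 25 of them separating (83.3%), with a median log2 fold change of -1.97. E2f2, a transcription factor of the cell cycle, was at 1.49 to 3.9 CPM in CD8aa libraries and 22.4 to 35.8 CPM in companion libraries. Of 18 ITAM and Fc receptor signalling genes, 11 were higher and 3 lower, with 9 separating as higher and a median of 3.02. Fcer1g was at 1029, 1207 and 2118 CPM in CD8aa libraries, against 7.94, 18.1 and 58.3 CPM in companion libraries (log2 fold change 5.81 ± 0.38 SE, adjusted p = 4.91e-08), and Sh2d1b1, an adaptor of SLAM receptors in NK cells, was at 124 to 159 CPM in CD8aa libraries against 0 to 6.76 CPM in companion libraries. Of 21 NK receptors, 9 were higher and 2 lower, and of 15 granule and death genes 12 were higher and 1 lower, with Gzmc, a granzyme, at 46.8 to 124 CPM in CD8aa libraries and 0.988 to 4.96 CPM in companion libraries. Of 16 epithelial contact genes 8 were higher and none lower, among them the cadherin gene Cdh17 at 100 to 329 CPM in CD8aa libraries and 1.95 to 13.9 CPM in companion libraries. Of 22 T cell identity factors 14 were lower and 1 higher. Tcf7, the factor of naive and memory T cells, was at 0.115 to 4.25 CPM in CD8aa libraries and 83.3 to 246 CPM in companion libraries. Of 23 egress and homing genes 16 were lower and 5 higher, and of 27 cytokine receptors 14 were lower and 2 higher (21.7% of the egress list higher, near the share of all genes), with S1pr1, Ccr6 and Il2ra at medians of 0 to 0.115 CPM in CD8aa libraries. Of 18 innate and effector factors 4 were higher (22.2%, near the share of all genes) and 6 lower (33.3%), with Eomes, one of the lower ones, at 0 to 0.748 CPM in CD8aa libraries and 2.25 to 59.9 CPM in companion libraries. Without the 4 Xist libraries, 26 cell cycle genes and 17 of the T cell surface genes were lower, 11 ITAM genes and 10 granule genes higher, and 15 egress genes lower. The lower T cell identity factors then numbered 9 and the lower cytokine receptors 9, and the higher NK receptors 7 and epithelial contact genes 6. The innate and effector factors then had 4 higher and 5 lower, and all 12622 tested genes had 1267 higher and 1231 lower. Some lists differed by host. In hosts given CD4 cells alone, 11 NK receptors were higher and 3 lower (median log2 fold change 2.09). In hosts given CD8ab cells alone, 7 were higher and 6 lower (median 0.37). Cytokine receptors had 2 higher and 18 lower in the former hosts, and 5 higher and 7 lower in the latter. All tested genes had 1839 higher and 1930 lower in the former, and 1716 and 1591 in the latter.

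Markers of other cells moved with the phenotype for some lists, and their part in the results was not tested. All 16 innate lymphoid markers had reads, and their summed level (TMM-scaled CPM with all genes in the scaling, as for the other sums here) was 8361 to 14145 CPM in CD8aa libraries and 1479 to 2015 CPM in companion libraries. The 5 called higher were Cd7, Tyrobp, Fcer1g, Klrb1c and Zbtb16, and 8 were called lower, with a median log2 fold change of -1.07 over the list. In hosts given CD4 cells alone 5 were higher and 8 lower (median -1.33). In hosts given CD8ab cells alone 5 were higher and 2 lower (median 1.52 over the members tested there). Cd7, also counted among the T cell surface genes, carried most of the sum, at a median of 7336 CPM in CD8aa libraries and 726 CPM in companion libraries. Of the markers called lower, Il23r, Il1r1 and Eomes had medians of 0 CPM in CD8aa libraries, and Ncr1, which did not pass the test, had a median of 1.31 CPM in CD8aa libraries and 2.02 CPM in companion libraries. Of 10 B cell markers 7 had reads, with sums of 49.4 to 76.4 CPM in CD8aa libraries and 7.2 to 23.9 CPM in companion libraries, mostly Cd79b, while Pax5 and Ebf1 were among those with none. Sums of 18 myeloid markers were 240 to 329 CPM in CD8aa libraries and 54.9 to 482 CPM in companion libraries, and Itgam alone of them was higher (152 to 256 CPM in CD8aa libraries against 1.58 to 16.6 CPM in companion libraries), with S100a8 and S100a9 at no read. Of the 15 tested, 7 were lower, among them Lyz2, Cd68 and C1qa, and the list's median log2 fold change was -1.32. Sums of 12 stromal and endothelial markers were 503 to 747 CPM in CD8aa libraries against 22.3 to 140 CPM in companion libraries, in CD8aa libraries nearly all Pecam1, with Col3a1, Dcn, Pdgfra and Lyve1 at no read. Enterocyte markers overlapped, at 164 to 840 CPM in CD8aa libraries and 51.2 to 1114 CPM in companion libraries, and none of 18 passed the test. Goblet, Paneth and endocrine markers summed to 4.12 to 46.5 CPM in CD8aa libraries and 0.664 to 46.4 CPM in companion libraries, and erythroid and platelet markers to 3.26 to 31.1 CPM in CD8aa libraries and 1.65 to 39.4 CPM in companion libraries. Mast cell markers summed to 70.6 to 176 CPM in CD8aa libraries and 78.3 to 137 CPM in companion libraries, and plasma cell markers to 229 to 277 CPM in CD8aa libraries and 327 to 498 CPM in companion libraries.

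Poorly known genes were taken by their symbols. Clone and predicted names (Rik, Gm and the like) made up 1716 tested genes, of which 280 (16.3%) were called higher and 188 (11%) lower, and 145 (8.45%) and 87 (5.07%) separated. All 4 shares were below those of all tested genes. Without the 4 Xist libraries 111 were called higher and 86 lower, beside 1267 and 1231 of all 12622 tested genes. Of these 232 separating genes, 116 overlapped another tested gene, and for 99 of the 116 an overlapped gene was called in the same direction, for 3 in the other. Whether the authors counted by strand is not given in the sources used here, so reads of overlapping genes cannot be told apart. Gm11775, for example, chosen after its values were seen, was the most abundant of them and overlaps Cd7 on the opposite strand. It was at 1027 to 1630 CPM in CD8aa libraries and 49.8 to 252 CPM in companion libraries (log2 fold change 3.51), and Cd7 differed by 3.49. Symbols of numbered families (Fam, Tmem, Ccdc, Wdr, Prr and the like) made up 726 tested genes, of which 79 (10.9%) separated as higher and 42 (5.79%) as lower. Their calls were 161 higher (22.2%) and 97 lower (13.4%), beside 19.6% and 17.9% of all tested genes. Without the 4 Xist libraries the calls of these families were 63 higher and 51 lower.

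Among the poorly known genes with the widest gaps above companion IEL, several overlap no tested gene. The long noncoding RNA 5031425F14Rik (chromosome 2, 166447451 to 166459232) was at 20.5, 25.2 and 30 CPM in CD8aa libraries and at 0.522, 1.35 and 2.55 CPM in companion libraries (log2 fold change 4.06 ± 0.31 SE, adjusted p = 2.07e-07). The long noncoding RNA Gm12708 (chromosome 4, 95193313 to 95209727) was at 7.56 to 17.2 CPM in CD8aa libraries and had reads in a single companion library, at 0.74 CPM. The coding gene 1700026L06Rik, named Spaca9 in GENCODE M21, was at 9.4 to 20.6 CPM in CD8aa libraries and 0 to 1.16 CPM in companion libraries. Others lie over genes that moved with them. C130050O18Rik, at 19.2 to 38.5 CPM in CD8aa libraries against 0 to 0.329 CPM in companion libraries, had a log2 fold change of 7.02. It overlaps 3110082I17Rik, which changed by less (log2 fold change 2.25). Gm15396 overlaps Napsa (4.48) and Gm15774 overlaps Eef2k (5.15), and all of these overlaps are on the opposite strand. Eef2k, the kinase that halts translation elongation, was at 224, 261 and 290 CPM in CD8aa libraries and 2.96, 6.67 and 15.9 CPM in companion libraries, and Napsa, an aspartic protease of lung and kidney, at 290 to 359 CPM in CD8aa libraries against 6.24 to 39.4 CPM in companion libraries. 4930520O04Rik also changed by more than the gene it overlaps. It was at 14.2 to 50.7 CPM in CD8aa libraries and 0 to 1.65 CPM in companion libraries (log2 fold change 5.49). Crtap, the overlapped gene, changed by 0.80 on the log2 scale.

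The gaps of the 8 poorly known genes below companion IEL ran from 2.72 to 5.22, against 7.19 for Ubash3a and 6.26 for Cd28. A430093F15Rik (chromosome 19, 10740947 to 10786043), a processed transcript that lies between Cd5 and Cd6, was at 0, 0.143 and 0.624 CPM in CD8aa libraries and at 41.3, 53.2 and 77.5 CPM in companion libraries (log2 fold change -8.13 ± 0.41 SE, adjusted p = 6.34e-09). Gm8369, a coding gene within the Ms4a cluster of chromosome 19, had 6 reads over the CD8aa libraries and was at 24.9 to 154 CPM in companion libraries. Fam169b (chromosome 7, 68273839 to 68363089), a little studied gene that overlaps Gm16158 on the opposite strand, was at 1.38, 2.82 and 4.47 CPM in CD8aa libraries and at 107, 120 and 147 CPM in companion libraries (log2 fold change -5.32 ± 0.24 SE, adjusted p = 2.33e-09). Prr5l, a partner of the mTORC2 kinase complex, was at 0 to 3.22 CPM in CD8aa libraries and 30.4 to 127 CPM in companion libraries, and C630004H02Rik (Hid1 in GENCODE M21) at 0 to 3.46 CPM in CD8aa libraries against 27.9 to 38.9 CPM in companion libraries. Pde2a, a phosphodiesterase that entered this kind only because M21 names its identifier Gm45837, was at 0.917 to 2.44 CPM in CD8aa libraries and 21.4 to 45.1 CPM in companion libraries. A830012C17Rik, with no read in CD8aa libraries (at least 149-fold lower), overlaps Penk on the opposite strand, and 2010016I18Rik overlaps Dennd2d, which was lower as well (log2 fold change -2.15).

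**Figure D4:**
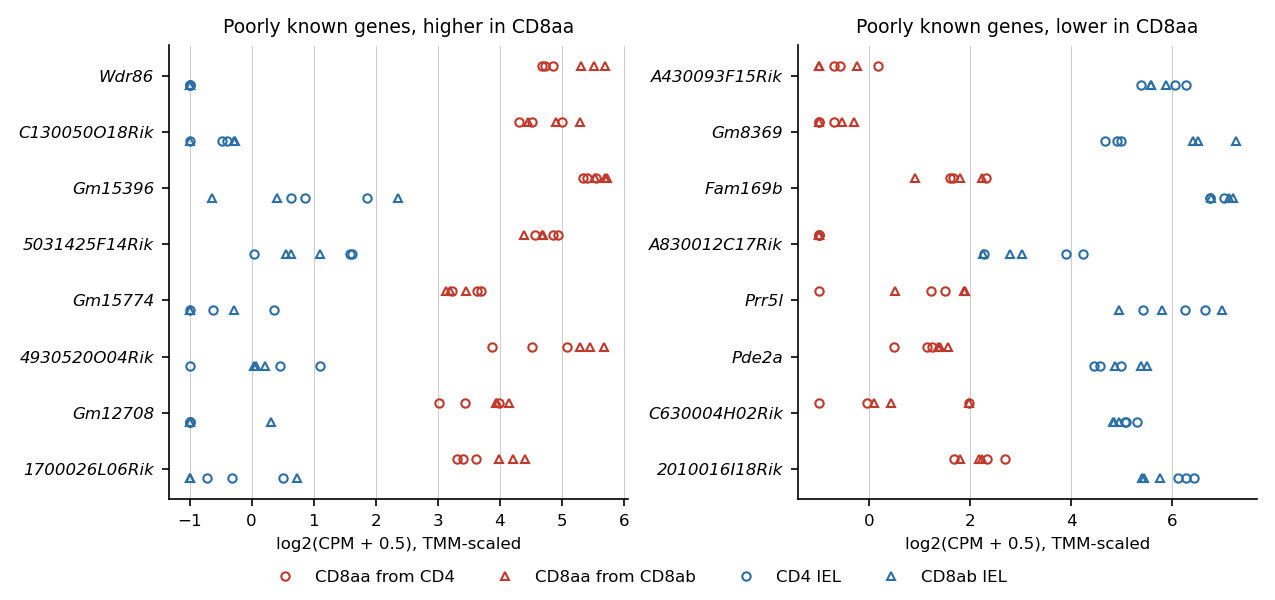
Level of the 8 genes with the widest gap in each direction among clone-name and numbered-family symbols, as log2(CPM + 0.5), 1 point per library. Red points are CD8aa libraries, drawn above blue companion libraries, with circles for hosts given CD4 cells and triangles for hosts given CD8ab cells. Wdr86 is at the floor in every companion library and A830012C17Rik in every CD8aa library.

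Separating genes also lay side by side. In chromosome order among tested genes there were 64 runs of at least 3 separating genes of the same direction, 39 higher and 25 lower, which held 208 genes, and the longest had 5. No chance level was computed for this, and genes of a run can overlap. Duplicated families accounted for some. Cd200r1, Cd200r4, Cd200r2 and Cd200r3 on chromosome 16, of the CD200 receptor family, had log2 fold changes of 1.88 to 4.64, and Itgam, Itgax and Itgad on chromosome 7, integrin α chains, 2.11 to 5.38. On chromosome 19, 5 adjacent genes from Ms4a4c to Ms4a6b had log2 fold changes of -2.72 to -9.11, and Cd5, A430093F15Rik and Cd6 of -8.10 to -8.14. Other runs joined unrelated genes. Htra3 stands beside Sh3tc1, which was at 94.9 to 120 CPM in CD8aa libraries and 0.329 to 7.92 CPM in companion libraries, and Ddc stands beside Grb10, with 1700042O10Rik over Ddc. Tmprss6, the liver protease matriptase-2, at 108 to 377 CPM in CD8aa libraries and 0 to 8.24 CPM in companion libraries, lies next to Il2rb, the shared receptor chain for interleukins 2 and 15, at 3352 to 3939 CPM in CD8aa libraries and 679 to 889 CPM in companion libraries. Gzma lies next to Gpx8, a peroxidase of the endoplasmic reticulum, at 113 to 173 CPM in CD8aa libraries and 0.872 to 8.45 CPM in companion libraries.

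**Figure D5:**
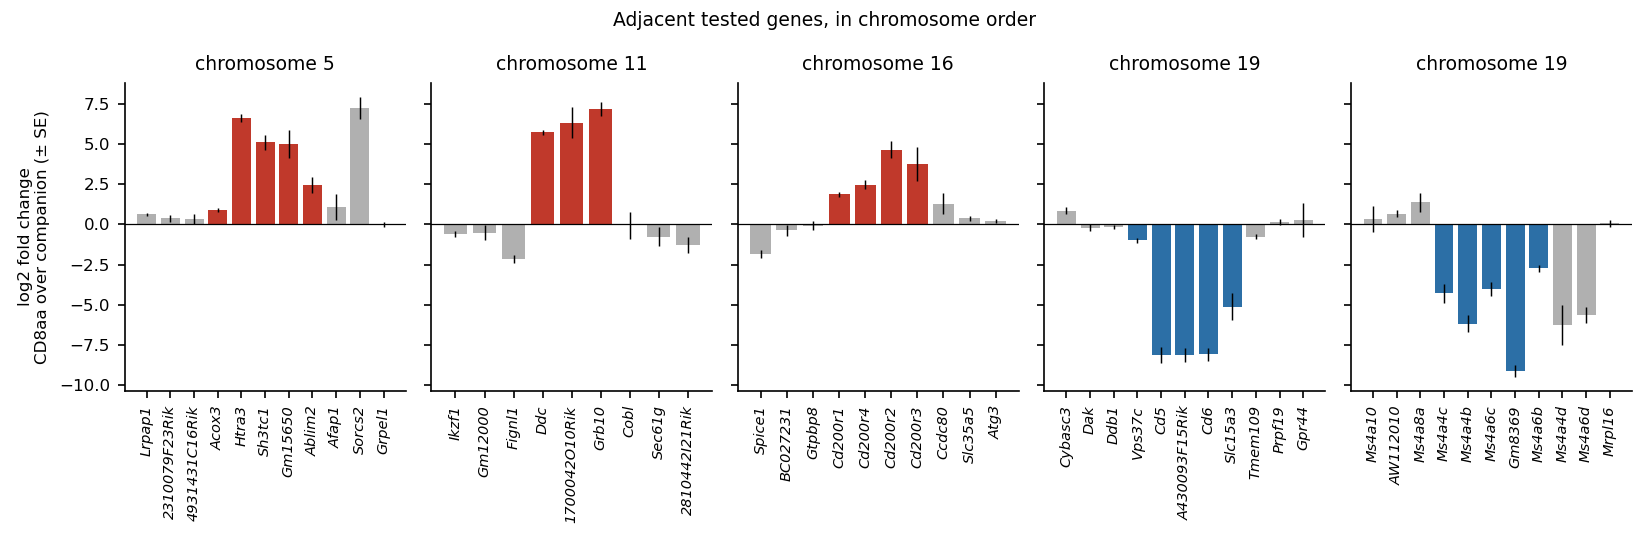
Log2 fold change (CD8aa over companion libraries, ± SE) of adjacent tested genes in chromosome order around 5 runs of separating genes, with 3 tested genes on either side. Coloured bars are the genes of the run and grey bars their neighbours. Grb10 and Ddc on chromosome 11 stand next to Fignl1, which was lower (-2.17), and Cobl, which did not pass the test.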

How the data were processed

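Bulk RNA-seq of 12 sorted libraries was analysed from read counts per gene (whole numbers, not normalized) that the authors deposited in 1 table of 25965 rows. Reads were aligned with HISAT2 2.1.0 to mm10, per the submitters' processing notes, and no source used here names the counting program, its annotation or its use of strand. Where a symbol had several rows, the row with most reads was kept (66 rows left out, 0.0202% of reads). No row was without a gene name, and 19 tested genes carry a date in place of a symbol and are not named. Some members of the lists are not reported here by name. Gene positions are those of the deposited table on mm10, and biotypes and newer names come from GENCODE M21, which held 24986 of the identifiers.

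Genes passing filterByExpr (minimum count 10, minimum total 15) were scaled by TMM and tested in R 4.3.3 with edgeR 4.0.16 (quasi-likelihood test, two-sided, transferred cell type as covariate, Benjamini-Hochberg adjustment over 12622 genes, called at an adjusted p under 0.05). Separation used TMM-scaled CPM, with 0.5 CPM added for gaps. The script was tested on simulated counts. Alternatives were DESeq2 1.42.0, other scalings and filters, other covariates, a replicate block, and leaving out libraries. Replicates differed by more than sampling noise (chi-square per gene 11.4 to 60.2) and had correlations of log2 CPM across genes of 0.926 to 0.968. The first principal component held 52.5% of the variance and separated the phenotypes.

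Genes named were Cd4, Cd8a, Cd8b1 and Themis, the 12 genes with the widest gap in each direction among those above the median level (leaving out sex-linked, clone-name and T cell receptor segment genes), the 8 poorly known genes with the widest gap in each direction, the widest gap of each symbol family, and the 2 called members with the largest fold change of each list. Neighbours in runs, genes without reads in one phenotype, paralogues and other genes were chosen after their values were seen. The comparison, the lists and the families were chosen with earlier results of these data known.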

Additional observations from a re-analysis of the deposited data

Results flagged for a closer look

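In 164 groups of 6 libraries (named genes within a phenotype), 1 library stood apart from the other 5 by Dixon's criterion in 13, where chance alone flags about 5 percent of groups. In CD8aa libraries, replicate 3 of CD8aa from CD4 had Cd6 at 18.9 CPM (others 2.66 to 4.27), Cd5 at 8.43 CPM (others 0.319 to 1.31) and Apoe at 0.78 CPM (others 2.56 to 4.25). Replicate 2 of CD8aa from CD4 had Mrgpra9 at 63.2 CPM (others 32.3 to 41.4) and Tcf7 at 0.115 CPM (others 2.81 to 4.25). Replicate 1 of CD8aa from CD4 was the only CD8aa library with a read of Gm13060 (0.171 CPM), and replicate 1 of CD8aa from CD8ab had Themis at 12.2 CPM (others 6.87 to 8.27). In companion libraries, CD4 IEL replicate 1 had P2rx1 at 0.545 CPM (others 0 to 0.106). CD4 IEL replicate 2 had Mrgpra9 at 1.44 CPM (others 0 to 0.327) and Gm13060 at 0.522 CPM (others 2.43 to 4.91), and CD4 IEL replicate 3 had Dll1 at 0.15 CPM (others 2.61 to 6.59). CD8ab IEL replicate 1 had Ddc at 4.3 CPM (others 7.57 to 8.74), and CD8ab IEL replicate 2 was the only companion library with Gm12708 (0.74 CPM). None of these values closed the gap between the phenotypes.

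The change of 6 named genes differed between the transferred cell types in edgeR's interaction test (hosts given CD8ab cells minus hosts given CD4 cells, log2). For the coreceptor genes, on which the cells were sorted, the difference was 7.34 for Cd4, -5.35 for Cd8a and -10.32 for Cd8b1. For Pecam1 it was 2.19, with log2 fold changes of 4.66 in hosts given CD8ab cells and 2.45 in hosts given CD4 cells (adjusted p = 0.000778). For Grb10 it was 3.54 (9.47 in hosts given CD8ab cells and 5.89 in hosts given CD4 cells, adjusted p = 0.0286) and for Myh7b 3.33 (8.06 in hosts given CD8ab cells and 4.70 in hosts given CD4 cells, adjusted p = 0.0291).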

How the results depend on the processing

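The count of called genes, 4739, was 4346 to 4993 on leaving out 1 library, 4744 with RLE scaling, 4802 with library totals, 4690 without the low-count filter, 5131 with DESeq2, 3867 without the covariate and 5164 with 1 mean per group. It moved furthest with the Y-linked covariate, to 3005 (1618 higher, 1387 lower), and without the 4 Xist CD8aa libraries, to 2504 (1271 higher, 1233 lower). No separating gene was called in the other direction under any of these. Separating genes keep their direction in any part of the 12 libraries, so leaving out libraries could hardly have given such a call. The Y-linked covariate is partly confounded with phenotype, because no companion library lacks Y-linked transcripts. Leaving out the 4 Xist libraries leaves 2 CD8aa libraries. Both limits can lower the count, and their part in the fall was not tested. Same-numbered libraries had correlated deviations of 0.0978 to 0.326 in hosts given CD8ab cells and -0.0156 to 0.0602 in hosts given CD4 cells, so the numbers were not taken as pairs over the whole design. The replicate block gave 4535 calls and kept 2319 of the 2343 separating genes. Each library correlated best with its own number in hosts given CD8ab cells but not in hosts given CD4 cells, a hint from the data and not from the design.

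Separation counts were 2470 to 2773 on leaving out 1 library, 649 (384 higher, 265 lower) with a gap of at least 1, and 3570 (1619 lower) without the 4 Xist libraries, an alternative added after seeing the data; fewer libraries separate more easily. Scaling by library totals gave 1153 higher and 1210 lower. The interaction count, 323, was 806 with DESeq2 and 147 to 368 on leaving out 1 library, with 200 without CD4 IEL replicate 2, 161 and 147 without replicates 2 and 3 of CD8aa from CD4, and 156 and 175 without replicates 1 and 3 of CD8aa from CD8ab. The cause was not tested.

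Of 86 named genes, 79 kept direction and call under all alternatives that gave a value. The exceptions were Cd4, Cd8a, Cd8b1 (1.75 in hosts given CD4 cells alone, against -3.43 overall), Klra8, Cd22, Cx3cr1 and Pdgfrb. Most named genes were chosen for a wide gap or a large fold change in these data. Their stability therefore does not describe the separating genes at large. A level under 0.271 to 0.534 CPM in a library is not distinguishable from 0.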

Other observations

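Genes of the sensory hair bundle, the actin-based organelle of inner ear hair cells, were listed after Myo7a and Cdh23 were seen among the separating genes, so their count supports nothing by itself. Of 12 such genes 7 were tested, 5 were called higher in CD8aa libraries and 4 separated. Cdh23, a cadherin of the tip link, had a median of 116 CPM in CD8aa libraries and 10 CPM in companion libraries (log2 fold change 3.58 ± 0.20 SE, edgeR adjusted p = 1.28e-08). The unconventional myosins Myo7a and Myo6 had medians of 33.4 and 170 CPM in CD8aa libraries, against 1.67 and 9.69 CPM in companion libraries. Gpr98, a large adhesion receptor, was at a median of 7.62 CPM in CD8aa libraries and 0.218 CPM in companion libraries. Cib2 was called higher (log2 fold change 1.82) with overlapping groups, and Ush1c and Whrn did not pass the test. The tip-link partner Pcdh15, and Ush1g and Clrn1, had no read in any library.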
